A study of Sus scrofa with 90 samples.

Results

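Muscle lesions of 21 d were compared with lesions of 6 h in Longissimus dorsi, the long muscle of the back, of piglets that had received propylene glycol by intramuscular injection. Propylene glycol is a solvent that carries injected drugs. The samples were chosen by the lesion age on their labels. They comprise 9 lesions of 21 d (pigs C to K) and 9 lesions of 6 h (pigs C to E and G to L), which is 18 of the 48 muscle samples of the series. Both ages were available from 8 pigs (C, D, E, G, H, I, J and K). The other groups, used to estimate the spread and to place the levels, are 10 lesions of 2 d, 9 lesions of 7 d and 10 sites without injection, called controls. Each pig carried lesions of several ages at randomised sites together with its own control, so the comparison is made within animals. Age, sex and breed of the pigs are not given in the sources used here.

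Damaged skeletal muscle is known to pass through an early phase, in which fibres are disrupted and neutrophils and macrophages enter the site, and a later phase, in which satellite cells rebuild fibres and connective tissue is remodelled. The comparison asks which transcripts separate a lesion in the early phase from one in the late phase. Expression was measured with radioactively labelled cDNA on arrays, 1 array per muscle sample. The table holds logarithms. No label states their base, so differences are stated in log units and not as folds. In bulk tissue, fewer cells of a type and less RNA per cell cannot be told apart. Of the 1908 features tested, 206 carry a gene symbol, for 121 genes. Each gene is represented by a feature that the array's annotation pairs with its symbol.

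Markers limit what can be said about cell types. None of the listed neutrophil, lymphocyte or adipocyte markers was measured. Of 17 macrophage markers 1 was measured (ANPEP), of 11 fibroblast markers 1 (FN1), and of 7 endothelial markers 1 (PECAM1). Of 20 markers of the muscle fibre 13 were measured, and 0 of them were called in the feature used for the gene. The fibre genes CKM and TNNC2 had means at the 98.1 and 99.4 percentiles of all features.

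The arrays differed in quality. The 6 h array of pig F was left out because its correlation with the other arrays was 0.240 as listed and 0.739 when it was read 384 rows on. A 6 h column of pig J was dropped because it repeats pig I's control value for value. Of the 47 arrays used, that of the 21 d lesion of pig J had the lowest correlation with the mean of the others, at 0.718. Within single arrays the SD over features, before normalisation, had a mean of 0.643 ± 0.196 (SD, n = 9) in 21 d lesions and 0.744 ± 0.0926 (SD, n = 9) in 6 h lesions. This SD was lower at 21 d in 5 of 8 pigs (mean difference -0.092, two-sided exact sign-flip p = 0.313, where 8 pairs allow 0.00781 at the least).

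Few features separated the 2 ages. By limma, 31 of 1908 features (1.62%) had an adjusted p below 0.05 and are called here, of which 20 were higher (1.05%) and 11 lower (0.577%) at 21 d. An unadjusted p below 0.05 was reached by 182 features (9.54%). The rises were the larger changes. They ran from 0.27 to 1.77 with a median of 0.88, and 9 of the 20 exceeded 1 log unit. The falls ran from -0.30 to -0.70 with a median of -0.48. In 10 of the 20 rises the 9 lesions of 21 d lay wholly above the 9 lesions of 6 h, and no other feature of the 1908 had groups without overlap (0.524%). In all 11 falls the groups overlapped. The balance of rises and falls depended on the settings. Falls outnumbered rises with array weights (48 falls, 33 rises) and without pig D (32 falls, 21 rises). There were 0 falls and 12 rises when only the 8 complete pairs were fitted, 5 falls and 11 rises on table values without quantile normalisation, and 5 falls and 18 rises with cyclic loess normalisation.

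**Figure D1:**
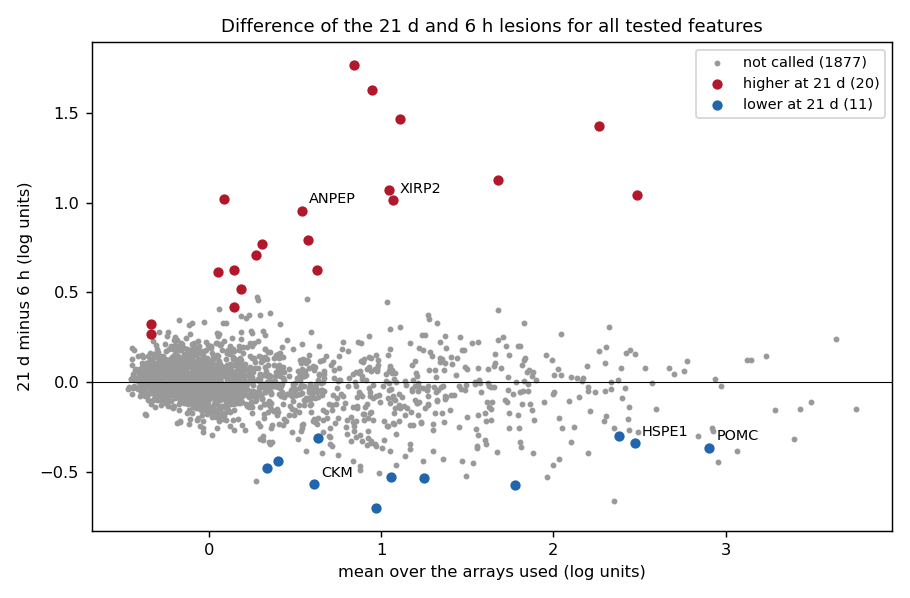
Difference between 21 d and 6 h lesions (y axis, log units) against the mean over the arrays used (x axis, log units) for the 1908 features, with the 20 called higher in red, the 11 called lower in blue and symbols printed where a called feature has one. The rises reach 1.77, and the falls stay within 0.70 of 0.

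Of the 121 genes with a symbol, 4 were called (3.31%), with XIRP2 and ANPEP higher and POMC and HSPE1 lower at 21 d. Another 11 reached an unadjusted p below 0.05 only, so that 15 genes did so in all (12.4%). One further feature, listed as CKM, was called as lower although the feature that stands for CKM was not.

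XIRP2 is an actin-binding repeat protein of the myotendinous junction and the intercalated disc, induced where myofibrils are damaged or remodelled. Its feature (number 7647) ran from 1.59 to 2.89 with a median of 2.21 in 21 d lesions, against 0.760 to 1.49 with a median of 1.16 in 6 h lesions. The lowest 21 d lesion, that of pig C, was still above the highest 6 h lesion, that of pig E. The fitted difference was 1.01 (SE 0.119, adjusted p = 6.46e-08 by limma), higher in 8 of 8 pigs. The size varied, from 0.429 in pig C and 0.627 in pig K to 1.29 in pig I and 2.13 in pig D. Pig D had both the highest 21 d value and, at 0.760, the lowest 6 h value.

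The 6 h level of XIRP2 was itself above that of uninjected muscle, by 1.21 (adjusted p = 3.22e-10 by limma). Controls averaged -0.00374 ± 0.142 (SD, n = 10), lesions of 6 h 1.18 ± 0.195 (n = 9), those of 2 d 0.0757 ± 0.221 (n = 10), those of 7 d 2.10 ± 0.386 (n = 9) and those of 21 d 2.22 ± 0.442 (n = 9). The path from 6 h to 21 d was thus not a steady one, since the 2 d lesions lay near the controls in between. Between 21 d and 7 d the difference was 0.14 (adjusted p = 0.808 by limma).

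ANPEP, aminopeptidase N, is a peptidase of the cell surface found on myeloid cells, fibroblasts and some epithelia. Its feature with the higher mean (number 5115) ran from 0.901 to 1.81 with a median of 1.10 in 21 d lesions, against -0.021 to 0.678 with a median of 0.291 in 6 h lesions. The groups did not overlap. The fitted difference was 0.96 (SE 0.124, adjusted p = 5.12e-07 by limma), higher in 8 of 8 pigs. By pig it was smallest in pig I, at 0.223, and largest in pig D, at 1.59. Features 5127 and 5139, a little further along the feature list, were also called higher. Their means at 21 d were 3.41 and 3.75. Whether the rise of feature 5115 is independent of theirs was not tested.

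Unlike XIRP2, ANPEP at 6 h was not called against control, at 0.17 (adjusted p = 0.408 by limma), where 11.8% of all features were called. At 21 d it stood above control by 1.12 (adjusted p = 3.75e-09), in a comparison with 14.7% of features called. Controls averaged 0.132 ± 0.156 (SD, n = 10), lesions of 6 h 0.295 ± 0.209 (n = 9), those of 2 d 0.323 ± 0.251 (n = 10), those of 7 d 0.763 ± 0.339 (n = 9) and those of 21 d 1.26 ± 0.345 (n = 9). The difference between 21 d and 7 d was 0.48 (adjusted p = 0.0558).

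A second feature listed as ANPEP (number 4970) did not follow the first. It had a mean of -0.332 ± 0.18 (SD, n = 9) at 21 d and -0.417 ± 0.0916 (SD, n = 9) at 6 h, and differed by 0.06 (SE 0.0913, adjusted p = 0.964 by limma). It ranged from -0.508 to 0.0735 in 21 d lesions and from -0.527 to -0.223 in 6 h lesions, so the groups overlapped. With a mean of -0.357 over all arrays, against 0.541 for the first feature, it lies low on the array. Which of the pair reports ANPEP was not tested.

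**Figure D2:**
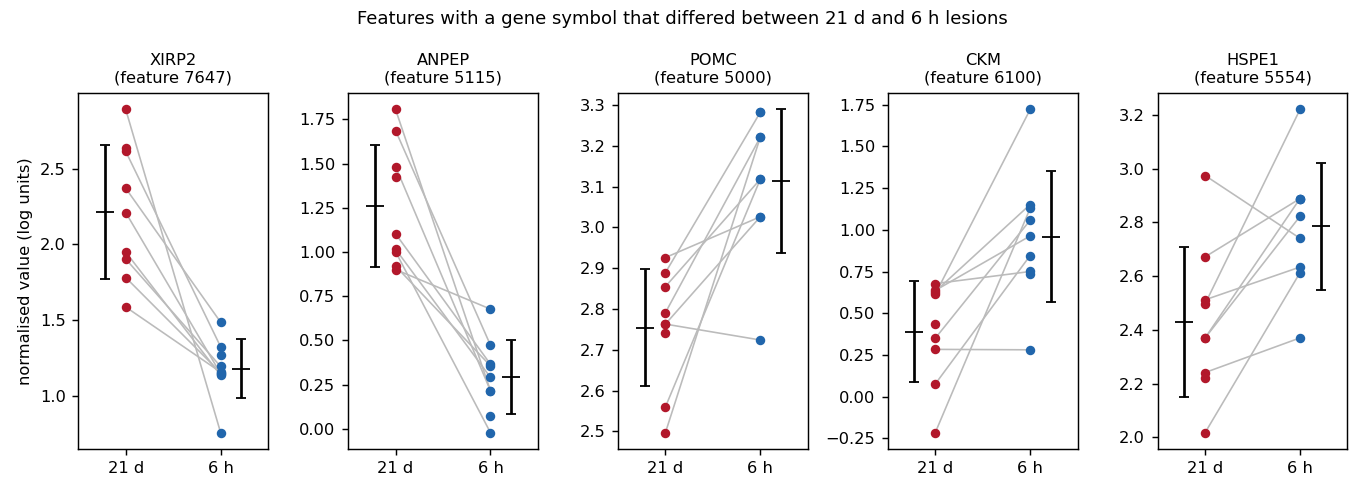
Normalised values (y axes, log units, a scale of its own in each panel) of the 5 called features that carry a symbol, with each lesion as a point (21 d red, 6 h blue, n = 9 each), grey lines joining lesions of the same pig and bars giving mean ± SD. The 21 d points of XIRP2 and ANPEP lie above all 6 h points, while those of POMC, HSPE1 and CKM overlap the 6 h points.

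The falls among genes with a symbol were smaller. POMC encodes the precursor of ACTH and of the melanocortins and is best known from the pituitary. The feature listed under it (number 5000) is among the brightest on the array. It ran from 2.50 to 2.93 with a median of 2.76 in 21 d lesions, against 2.72 to 3.28 with a median of 3.12 in 6 h lesions. All 6 h lesions but that of pig D, at 2.72, were above the highest 21 d lesion. The fitted difference was -0.37 (SE 0.085, adjusted p = 0.0104 by limma), lower in 7 of 8 pigs. The call ended without pig I (-0.34, adjusted p = 0.054), on complete pairs alone (-0.36, adjusted p = 0.314), on table values (-0.71, adjusted p = 0.487), on median-centred values (-0.69, adjusted p = 0.473), with the 6 h array of pig F kept in place (-0.06, adjusted p = 0.962) and with cyclic loess normalisation (-0.28, adjusted p = 0.228).

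HSPE1, the small chaperonin that caps HSPD1 in the mitochondrial matrix, ran from 2.02 to 2.98 with a median of 2.37 in 21 d lesions, against 2.37 to 3.22 with a median of 2.82 in 6 h lesions. The fitted difference was -0.34 (SE 0.0916, adjusted p = 0.042 by limma), lower in 7 of 8 pigs, with pig D the exception at 0.234. Controls averaged 2.11 ± 0.164 (SD, n = 10), lesions of 6 h 2.79 ± 0.237 (n = 9), those of 2 d 2.39 ± 0.169 (n = 10), those of 7 d 2.70 ± 0.187 (n = 9) and those of 21 d 2.43 ± 0.279 (n = 9). The 6 h lesions stood above control by 0.66 (adjusted p = 1.07e-06) and the 21 d lesions by 0.32 (adjusted p = 0.0126). The groups overlapped. The call against 6 h ended when pig C, E, F, J, K or L was left out, with differences from -0.29 to -0.33 (adjusted p from 0.0776 to 0.187). It also ended on complete pairs alone (-0.31, adjusted p = 0.663), on table values (-0.63, adjusted p = 0.51), on median-centred values (-0.61, adjusted p = 0.483), with the array of pig F kept in place (-0.11, adjusted p = 0.897) and with cyclic loess normalisation (-0.24, adjusted p = 0.558).

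CKM, the muscle creatine kinase that regenerates ATP from phosphocreatine, has 10 measured features. The called one (number 6100, chosen after its values were seen) ran from -0.217 to 0.678 with a median of 0.437 in 21 d lesions, against 0.28 to 1.72 with a median of 0.964 in 6 h lesions. Its groups overlapped. It differed by -0.57 (SE 0.146, adjusted p = 0.0304 by limma), lower in 7 of 8 pigs, with a difference of 0.00257 in pig H. The call ended without pig E, I, J or K (adjusted p up to 0.146). It also ended on complete pairs alone (-0.55, adjusted p = 0.179 by limma), on table values (-0.65, adjusted p = 0.0788) and on median-centred values (-0.63, adjusted p = 0.0649). The same held with the array of pig F kept in place (-0.44, adjusted p = 0.261) and with the array SD in the model (-0.50, adjusted p = 0.0663). Leaving out the 21 d lesion of pig J ended it too (-0.53, adjusted p = 0.0781). The brightest CKM feature (number 5072) had a median of 2.34 at 21 d and 2.31 at 6 h, with a difference of 0.01 (SE 0.0791, adjusted p = 0.98). Over the 10 features the differences ran from -0.57 to 0.08 with a median of -0.04, 7 of them below 0, and 1 was called.

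Most of the called features carry no symbol, 18 of the 20 rises and 8 of the 11 falls. The 2 largest rises were feature 7896 and feature 6682. Feature 7896 ran from 1.44 to 2.82 with a median of 2.32 in 21 d lesions, against 0.199 to 0.778 with a median of 0.439 in 6 h lesions. It differed by 1.77 (SE 0.116, adjusted p = 1.33e-14 by limma). Feature 6682 ran from 1.28 to 2.86 with a median of 2.40 in 21 d lesions, against 0.245 to 1.03 with a median of 0.682 in 6 h lesions. It differed by 1.63 (SE 0.138, adjusted p = 1.57e-11). Each was higher in 8 of 8 pigs, and neither had groups that overlapped.

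Both features were higher still at 21 d than at 7 d. Feature 7896 differed there by 0.63 (adjusted p = 0.00215 by limma) and feature 6682 by 0.63 (adjusted p = 0.0147), in a comparison in which 0.681% of features were called. Feature 7477, chosen after its values were seen, was the third rise with a difference there, at 0.53 (adjusted p = 0.0113). The other 17 rises, XIRP2 and ANPEP among them, were not called between 21 d and 7 d. Since these features were picked on the same 21 d lesions, this count is a description.

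The 2 largest falls were feature 7142 and feature 6380. Feature 7142 ran from -0.0915 to 1.94 with a median of 1.09 in 21 d lesions, against 1.43 to 2.02 with a median of 1.74 in 6 h lesions. It differed by -0.70 (SE 0.158, adjusted p = 0.007 by limma), lower in 7 of 8 pigs. Controls averaged 0.187, lesions of 6 h 1.80, those of 2 d 0.140, those of 7 d 1.78 and those of 21 d 1.11. The 21 d lesions were above control by 0.91 (adjusted p = 3.84e-05) and below the 7 d lesions by a difference of -0.65 (adjusted p = 0.0327). Feature 6380 ran from 0.464 to 2.50 with a median of 1.68 in 21 d lesions, against 1.80 to 2.60 with a median of 2.17 in 6 h lesions. It differed by -0.57 (SE 0.15, adjusted p = 0.0349), and the call ended without pig C, E, I, J, K or L (adjusted p from 0.0514 to 0.185). The lowest 21 d value of both features came from pig J.

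Across all 5 groups the called features are summarised here by medians, for rises and for falls. For the 20 rises the median of the group means was 0.0427 for controls, 0.334 for lesions of 6 h, 0.113 for those of 2 d, 0.833 for those of 7 d and 1.19 for those of 21 d. In each of the 20 the 7 d mean was above the 6 h mean, and in 15 the 2 d mean was below it. For the 11 falls it was 0.767 for controls, 1.55 for lesions of 6 h, 1.04 for those of 2 d, 1.42 for those of 7 d and 0.993 for those of 21 d. In each of the 11 the 2 d mean was below the 6 h mean. The medians of the falls do not trace a single feature. Feature 7548 gave those of controls, 2 d and 7 d, and feature 5653 those of 6 h and 21 d. Feature 5653 had means of 1.42 in controls and 1.08 at 7 d. At 21 d it was called below control (-0.43, adjusted p = 0.0328 by limma). In feature 5653, POMC and features 6689 and 6500 the 7 d mean was below the 2 d mean, and in the other falls above it. The medians of rises and falls describe features chosen for their 6 h and 21 d values and carry no test.

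**Figure D3:**
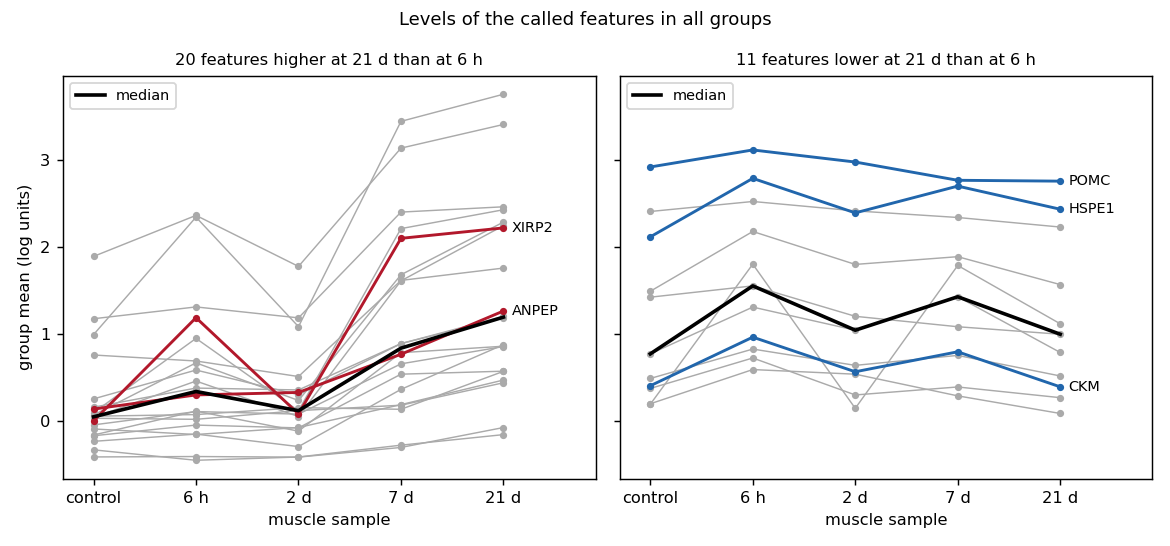
Group means (y axis, log units) of the 20 features called higher (left) and the 11 called lower (right) at 21 d than at 6 h, in controls and in lesions of 6 h, 2 d, 7 d and 21 d (x axis), with symbols named, other features in grey and the median in black. The median of the rises reaches 0.833 at 7 d and 1.19 at 21 d, and that of the falls peaks at 1.55 at 6 h and 1.42 at 7 d. The medians of the falls come from different features and do not trace a single one.

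The spread between lesions was also larger at 21 d in most features, which is given here as a description with no test. The SD over lesions was larger at 21 d than at 6 h in 18 of the 20 rises, with a median SD of 0.35 at 21 d and 0.196 at 6 h. Among the 11 falls this held for 8, with a median SD of 0.303 at 21 d and 0.224 at 6 h. The same held for 1346 of all 1908 features, with a median SD of 0.254 at 21 d and 0.202 at 6 h. The fit gives each feature a common residual variance over all 5 groups. Where the 21 d lesions spread more than the other groups, as in XIRP2, the SE and p-values given may therefore be too small.

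Animals differed in how far their 2 lesions lay apart. Over the 20 rises the median difference within a pig ran from 0.473 in pig C to 1.31 in pig D, and all 20 had the same sign in pigs C, D, E, G and J. There were 19 in pig H, 18 in pig K and 17 in pig I. Over the 11 falls the median difference ran from -0.115 in pig D to -0.783 in pig J. Pig D, with the widest gap in the rises, had 7 of the 11 falls below 0, and each other pig had at least 10. The rises and falls were picked on these same lesions, so the counts of signs are a description. No called feature lay within 5 places of another on the feature list. That window is narrow. Apart from reading in place, most arrays matched the others best at a shift of 24 or -24 rows. The rises include features 4644 and 4656, features 5115 (ANPEP), 5127 and 5139, and features 5499 and 5523. Calls thus recur at spacings wider than the window. Whether they do so more often than by chance was not tested, nor whether such calls are independent.

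**Figure D4:**
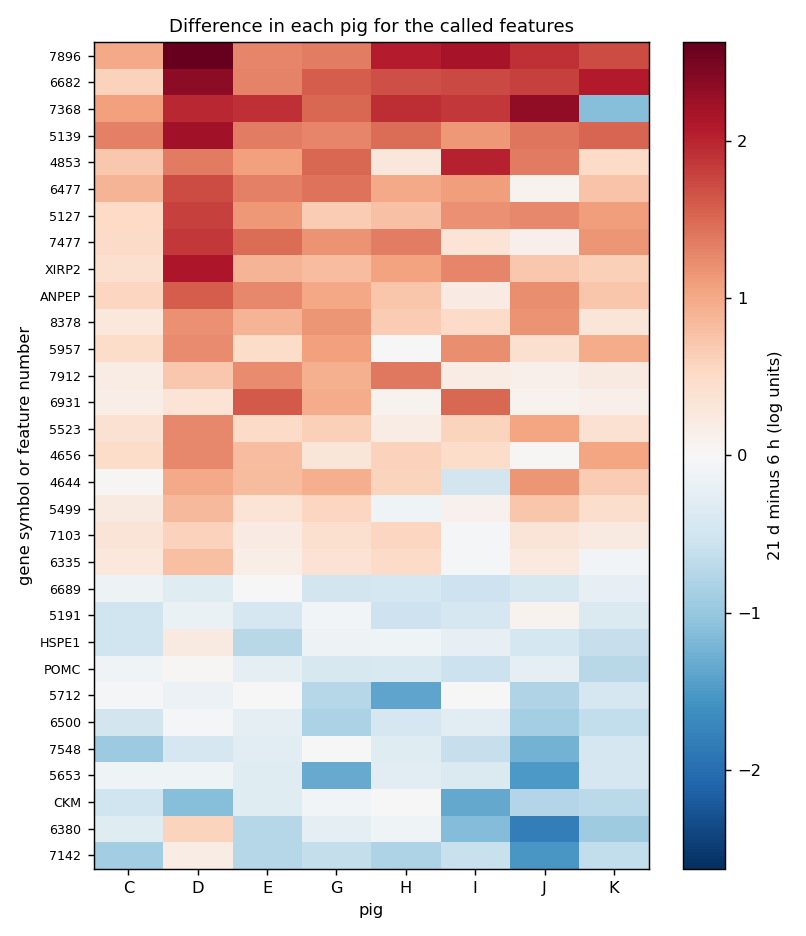
Difference between the 21 d and the 6 h lesion (colour, log units) in each of the 8 pigs with both (columns) for the 31 called features (rows, largest rise at the top, named by symbol or feature number). Pig D has the highest median among the rises, at 1.31, and pig J the lowest among the falls, at -0.783.

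The 6 h array of pig F gave a reading that the calls had not used. Calls made without pig F numbered 33, of which 19 were rises. With the array read 384 rows on, 8 of these 19 rises had a value, and the 21 d lesion of pig F was higher in 8 of 8, by a median of 1.46. Of the 14 falls, 9 had a value and 5 were lower in pig F. Over all 910 features with a value, 402 were higher (44.2%) and the median difference was -0.0746. XIRP2 was at 2.62 in the 21 d lesion of pig F and at 1.34 in its moved 6 h array, a difference of 1.28. HSPE1 was at 2.20 in the 21 d lesion and at 2.24 in the moved 6 h array, a difference of -0.031. POMC was at 2.72 in the 21 d lesion and at 0.289 in the moved 6 h array, a difference of 2.44 that runs against its call. The value moved to the POMC feature comes from the first block of 384 rows of this array. That block matched the other 6 h arrays at only r = 0.38 after the move, against 0.666 to 0.911 in the other 7 blocks. Without it 7 of 7 rises were higher and 5 of 8 falls were lower.

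Few genes in the lists of muscle functions were called. Over all 121 genes the median difference was -0.00463, with 59 genes above 0. Of 8 measured genes of the fast fibre sarcomere 0 were called by limma, 1 had an unadjusted p below 0.05 and the median was -0.04. TNNC2, the calcium-binding troponin of fast fibres, had values from 1.52 to 3.42 at 21 d and from 2.10 to 3.75 at 6 h (difference -0.44, SE 0.313, adjusted p = 0.824). MYH1, a fast myosin heavy chain, differed by 0.28 (adjusted p = 0.451), and its 21 d values ran from 0.0159 to 1.65 with pig J highest. TNNT3, the fast troponin T, differed by -0.15 (adjusted p = 0.851).

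Of 6 genes of the slow fibre and cardiac type 0 were called by limma, 2 had an unadjusted p below 0.05 and the median was -0.01. These were ATP2A2, the slow-fibre calcium pump, at -0.24 (adjusted p = 0.521), and TPM3, the slow alpha-tropomyosin, at -0.21 (adjusted p = 0.518). The pump ran from -0.158 to 0.383 in 21 d lesions and from -0.16 to 1.15 in 6 h lesions. Of 7 genes listed together as shared sarcomere, Z disc and intermediate filament genes, XIRP2 was the 1 called, and the median was 0.05. MYOZ1, a calcineurin-binding Z disc protein, differed by 0.22 (adjusted p = 0.874), and DES, the muscle intermediate filament desmin, by -0.11 (adjusted p = 0.965).

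Energy metabolism gave no call. Of 8 genes of glycolysis and glycogen 0 were called by limma and 1 had an unadjusted p below 0.05, with a median of 0.03. PFKM, the muscle phosphofructokinase, ran from 1.25 to 1.92 in 21 d lesions and from 1.38 to 2.50 in 6 h lesions (difference -0.35, SE 0.127, adjusted p = 0.217). The other measured PFKM feature differed by -0.21. Both PFKM features had an unadjusted p below 0.05 by limma, and neither was called. TPI1 differed by 0.13 (adjusted p = 0.811) and GAPDH by 0.25 (adjusted p = 0.874). Of 7 genes of respiration and mitochondrial enzymes 0 passed the test in limma, and 0 reached an unadjusted p below 0.05. Their median was -0.00298, with IDH2 at 0.11, VDAC1 at -0.10 and IDH3B at 0.08 (adjusted p from 0.863 to 0.874). Of the 2 measured chaperones HSPE1 was called, and HSP90AA1 differed by 0.08 (adjusted p = 0.948).

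Of 16 genes of the ribosome and translation 0 were called by limma, 3 had an unadjusted p below 0.05 and the median was 0.00800. RPSA, a protein of the small subunit, differed by 0.28 (adjusted p = 0.234), RPS20 by -0.19 (adjusted p = 0.47) and RACK1, a scaffold on the small subunit, by 0.22 (adjusted p = 0.523). CAPNS1, the small calpain subunit and the 1 proteolysis gene measured, differed by 0.02 (adjusted p = 0.979). Of 3 non-muscle cytoskeleton genes 0 passed the test and 2 reached an unadjusted p below 0.05. ACTB, the non-muscle beta-actin, differed by 0.37 (SE 0.127, adjusted p = 0.181) in the feature used for the gene, with 6 of 8 pigs higher. That feature was called with array weights (0.49, adjusted p = 0.000807). Over the 7 measured ACTB features the differences ran from -0.14 to 0.37 with a median of 0.03, 4 above 0 and 3 below. Of these 7 features 0 passed the test in limma, and only the feature used for the gene reached an unadjusted p below 0.05. CFL1, the actin-severing cofilin, differed by -0.26 (SE 0.0894, adjusted p = 0.195) and was called without pig C (-0.34, adjusted p = 0.0367). TUBA1B, an alpha-tubulin, differed by -0.05 (adjusted p = 0.956).

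Of 7 genes of cytokine and immune signalling 0 were called by limma and 1 had an unadjusted p below 0.05, with a median of 0.10. That was MAPK12, the gamma form of p38, which differed by 0.18 (adjusted p = 0.44), with values from 2.17 to 2.67 at 21 d and from 2.06 to 2.63 at 6 h. PTGS2, the inducible cyclooxygenase, differed by -0.11 (adjusted p = 0.851) and MIF, a cytokine, by 0.18 (adjusted p = 0.862). Of 3 genes of the matrix and cell surface ANPEP was the 1 called. POMGNT1, which glycosylates dystroglycan, ran from 0.138 to 1.17 in 21 d lesions with pigs K and J lowest, against 0.888 to 1.54 in 6 h lesions. It differed by -0.37 (SE 0.106, adjusted p = 0.0599), lower in 6 of 8 pigs, and was called without the replicate block (-0.38, adjusted p = 0.0302) and without pig D (-0.43, adjusted p = 0.0306). FN1, fibronectin, differed by -0.04 (adjusted p = 0.965) and PECAM1, an endothelial adhesion molecule, by 0.03 (adjusted p = 0.965).

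**Figure D5:**
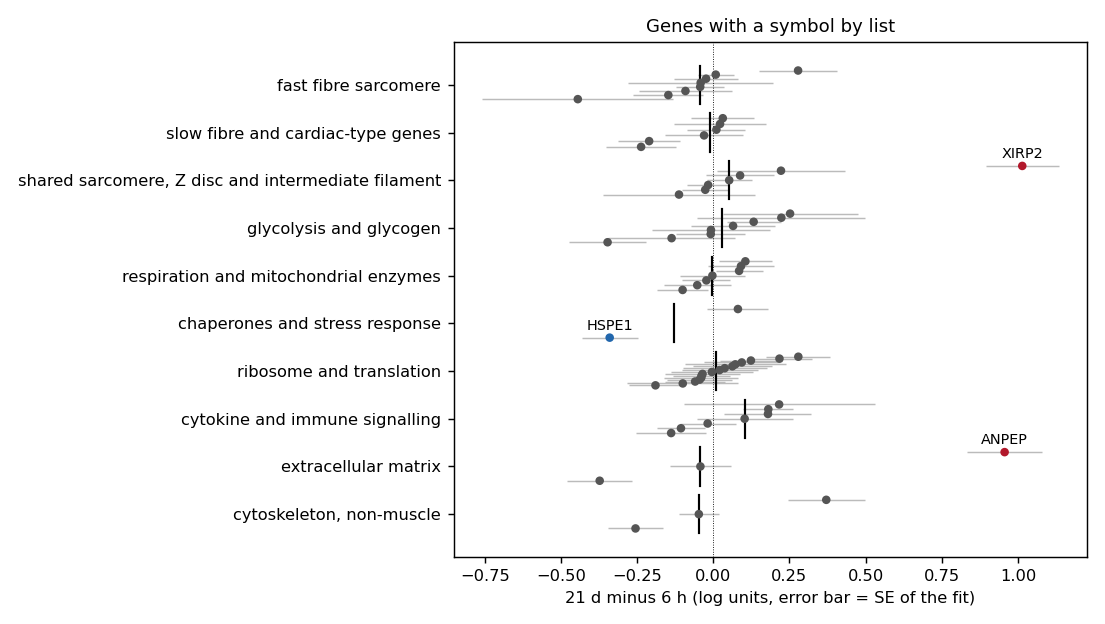
Difference between 21 d and 6 h lesions (x axis, log units, error bar = SE of the fit) of each gene with a symbol in the lists with at least 2 measured genes (y axis), with black ticks at the list medians. XIRP2 at 1.01 and ANPEP at 0.96 (red) and HSPE1 at -0.34 (blue) are called, and the list medians lie between -0.13 and 0.10.

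Of the 121 genes, 16 (13.2%) were called against control at 21 d or at 6 h and not between the 2 ages, where the same rule took 349 of all 1908 features (18.3%). Of these genes 8, with the smallest adjusted p against control, are given here. Both comparisons use the same controls. JAK1, a kinase of cytokine receptors, was at 0.54 at 21 d (adjusted p = 0.000618) and 0.68 at 6 h (adjusted p = 2.86e-05) relative to control, and differed between the ages by -0.14 (SE 0.114, adjusted p = 0.863). TPM2, beta-tropomyosin, was at -0.47 at 21 d (adjusted p = 0.00232) and -0.56 at 6 h (adjusted p = 0.000355), and differed by 0.09 (SE 0.113, adjusted p = 0.948). MYH7, the slow myosin heavy chain, was at 0.37 at 21 d and 0.36 at 6 h, and differed by 0.01 (SE 0.0951, adjusted p = 0.988). QDPR, which regenerates tetrahydrobiopterin, was at -0.34 at both ages and differed by 0.00567 (SE 0.0797, adjusted p = 0.993).

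The other genes of this kind were NPPA, a natriuretic peptide precursor, UGP2, which makes UDP-glucose, TPM3 and POMGNT1. Relative to control NPPA was at 0.35 at 21 d and 0.32 at 6 h (difference 0.03, SE 0.103, adjusted p = 0.965). UGP2 was at 0.49 at 21 d and 0.43 at 6 h (difference 0.06, SE 0.138, adjusted p = 0.965). TPM3 was at -0.35 at 21 d (adjusted p = 0.0135) and -0.14 at 6 h (adjusted p = 0.398), and POMGNT1 at -0.56 at 21 d (adjusted p = 0.000161) and -0.19 at 6 h (adjusted p = 0.245). That TPM3 and POMGNT1 passed the test against control at 21 d and not at 6 h does not show that the ages differ. The direct tests gave -0.21 for TPM3 and -0.37 for POMGNT1, and neither was called.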

How the data were processed

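Per the labels, RNA of each muscle sample was reverse transcribed with a radioactive label and hybridised to 1 array with duplicated parts, which was read from an imaging plate. The deposited table holds log-scale values (unit: other, from -1.33 to 5.00), whose base, centring and filtering are not given in the sources used here. It lists 4608 features in 90 columns for 48 muscle samples. A value in every column was present for 1908 features, which were tested. Both columns of a sample were averaged, and they were identical in 41 of 42 pairs. A gene identifier matched the current gene table for 204 of the 206 features with a symbol.

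The 47 arrays were quantile-normalised and fitted by limma 3.58.1 in R 4.3.3 (lmFit, eBayes), with group and animal as fixed effects and samples of all 5 groups. The p-values are two-sided and adjusted over 1908 features after Benjamini-Hochberg. The pairing comes from the animal on the label. Deviations from group means correlated at a median of -0.0798 between the 21 d and 6 h lesions of a pig and at 0.0222 between different pigs. For each gene the feature with the highest mean was used. The genes named were those called with one sign in at least 80% of the pigs, the 3 members of each list with the smallest adjusted p, up to 8 genes called against control, and the 2 largest rises and falls without a symbol. The members and lists were chosen with earlier results of these data known. On simulated data with 200 of 1908 features changed, the fit recovered 38% of changes of 0.3 and 88% of changes of 0.6 between 21 d and 6 h, with 6 false calls. The simulated noise was independent and normal, with the same SD for a feature in every array. The measured arrays differed in quality, so these figures need not hold for them. The number of arrays limits the precision. Nothing in the labels says more than 1 extract was made per lesion. Figures were drawn with matplotlib 3.10.9.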

Additional observations from a re-analysis of the deposited data

Results flagged for a closer look

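Values far from the rest of their group were looked for among the 9 lesions of 21 d and the 9 lesions of 6 h of each of the 44 named features, which makes 88 groups. Dixon's test at the 95% level marked 14 of them, where chance marks about 1 group in 20.

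At 21 d the lesion of pig J stood apart in 5 features. It was at 1.65 in MYH1 (the others up to 0.776), at 0.830 in NPPA (up to 0.396), at 0.271 in DES (from 1.47), at 1.56 in MYH7 (up to 1.15) and at -0.0915 in feature 7142 (from 0.915). Its array also had the lowest correlation with the other arrays. Pig K was at 2.58 in TPI1 (the others up to 2.08), pig D at 0.324 in PTGS2 (up to -0.0518) and pig C at 3.35 in CFL1 (up to 2.93).

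At 6 h pig D was at 0.760 in XIRP2 (the others from 1.14), at 2.72 in POMC (from 3.03) and at 0.567 in MIF (up to 0.0767). Pig G was at -0.254 in GAPDH (the others from 0.907), at 0.711 in ACTB (up to 0.269) and at 0.582 in QDPR (from 0.833).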

How the results depend on the processing

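XIRP2, ANPEP (feature 5115), feature 7896 and feature 6682 stayed higher and called under all 24 alternatives tried. The 31 called features became 16 on table values, 17 on median-centred values, 12 with complete pairs alone, 20 with the 6 h array of pig F kept in place and 81 with array weights (33 higher, 48 lower), which lowered the 21 d arrays of pigs J (weight 0.15) and I (0.232) and the 6 h array of pig G (0.215). Leaving out 1 pig gave 23 to 53, the highest without pig D (21 higher, 32 lower). The 4 called genes became 2, XIRP2 and ANPEP, on table values, on median-centred values, with cyclic loess, with complete pairs alone, with pig F's array kept in place and with the local trend subtracted. Without the replicate block 43 features were called, the 31 among them, and POMGNT1 was added to the genes. The block changed no other call of a named gene. With the 21 d lesion of pig J left out the count was 29, of which 23 were among the 31, and it was also 29 with the 6 h lesion of pig J left out (both chosen after seeing the data). Of the 24 alternatives, the call of HSPE1 ended under 17, that of feature 6380 under 16 and that of CKM feature 6100 under 10. The call of POMC ended under 7 and that of feature 7142 under 3. The sign stayed the same in each case. Of the 35 named features not called, 18 changed sign under some alternative without being called. The causes were not tested. Signal over background is not given in the table, so dim features cannot be set apart.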
